A study of Mus musculus with 45 samples.

Results

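The Igkv genes are the variable (V) segments of the immunoglobulin kappa light chain locus. They were taken as every row of the deposited expression tables whose gene symbol begins with Igkv, which gave 160 of the 47729 genes in each table. All 160 were found in the GENCODE M21 annotation of the mouse build GRCm38, on chromosome 6 between positions 67555497 and 70704177, upstream of the kappa constant region gene Igkc (chr6:70726435-70726966, plus strand). In that annotation 100 of the rows are functional V genes and 60 are pseudogenes, with 75 segments on the plus strand and 85 on the minus strand. For comparison, the tables hold 185 heavy chain V segments (Ighv) and 3 lambda V segments (Iglv).

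A B cell builds its kappa light chain gene by cutting the DNA of the locus and joining a V segment to a joining (J) segment. A segment that lies in the same orientation as the J segments is joined by deletion of the DNA between them, and one in the opposite orientation by inversion. The V segment that a B cell has joined stays the same in its daughter cells, and plasma cells, the antibody-secreting descendants of B cells, transcribe the joined gene at a very high level. In a piece of tissue the Igkv transcripts therefore report both how much kappa mRNA is present and which V segments the local B lineage cells carry. Most mouse antibodies have a kappa rather than a lambda light chain.

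The RNA came from CT26 tumours, a transplantable colon carcinoma line of BALB/c origin, grown under the skin of HuGEMM mice, a BALB/c strain that carries human PD-1 and human TIGIT as a double knock-in. Every group, vehicle included, carried both knock-ins and the same tumour line. Antibodies were injected intraperitoneally 2 times a week from day 8, when tumours measured 90 to 100 mm3. Serplulimab and pembrolizumab bind PD-1, and HLX53 and tiragolumab bind TIGIT, and signals through either receptor restrain T cells. Experiment T2106 had 6 groups: vehicle, serplulimab, HLX53, pembrolizumab + tiragolumab, and the pair serplulimab + HLX53 with HLX53 at 5 mg/kg in one group and 10 mg/kg in another. Experiment T2215 had 9 groups: vehicle, each of the 4 antibodies alone, serplulimab + HLX53, serplulimab + tiragolumab, pembrolizumab + HLX53 and pembrolizumab + tiragolumab. All antibodies were given at 10 mg/kg except HLX53 in the 5 mg/kg group, and each of the 15 groups had 3 tumours. The vehicle was saline. RNA was taken from whole tumour tissue, so it mixes carcinoma cells with host cells, and each tumour contributed 1 library.

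Expression is given as FPKM, fragments scaled to transcript length and to the size of the library, so levels can be set side by side between segments. Each library summed to between 678636 and 911201 FPKM and listed 12918 to 14448 genes at 0.5 FPKM or more. The number of reads behind a value is unknown. The Igkv values fell into separate ranges: of 2880 values in T2106, 2387 lay below 0.01 FPKM, 1 lay between 0.01 and 0.05, and 492 lay above, starting at 0.0906. In T2215, 3854 of 4320 values lay below 0.01 FPKM, 4 lay in between, and 462 lay above, starting at 0.0645. Values below 0.01 FPKM are written here as near 0. The tables of the experiments were normalised separately, and levels are compared within an experiment. In T2215, replicate 1 of serplulimab stood apart, with marker genes of skeletal muscle summing to 17678 FPKM against 1.49 to 226 FPKM in the other 26 tumours. With or without that library, 0 Igkv segments were called in each of the comparisons of T2215 described further on.

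The V exon holds nearly all of the variable region that the germline encodes, and its end is where the J segment is joined. Within 30 bases of that end, 98 of the 100 functional segments have their last in-frame cysteine codon, which in a kappa chain marks the start of the third complementarity determining region, the most variable loop that touches antigen. The last 60 bases of the V exon, 5′ to 3′ and in the sense of the gene, are shown for the 6 segments with the highest mean share of the Igkv signal over both experiments, with that cysteine codon in capitals.
Igkv10-96, chr6:68631963-68632022, minus strand: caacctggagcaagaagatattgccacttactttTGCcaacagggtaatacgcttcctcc
Igkv1-110, chr6:68271208-68271267, plus strand: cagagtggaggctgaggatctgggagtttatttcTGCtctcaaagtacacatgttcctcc
Igkv1-135, chr6:67610449-67610508, plus strand: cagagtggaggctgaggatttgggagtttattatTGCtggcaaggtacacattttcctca
Igkv2-109, chr6:68303099-68303158, plus strand: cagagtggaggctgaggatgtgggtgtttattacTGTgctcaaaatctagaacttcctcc
Igkv4-61, chr6:69416893-69416952, minus strand: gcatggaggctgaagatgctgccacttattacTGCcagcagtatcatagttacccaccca
Igkv1-117, chr6:68121768-68121827, plus strand: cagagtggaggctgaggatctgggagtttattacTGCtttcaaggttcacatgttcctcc
The 7 segments that follow were each the largest of a tumour with a high Igkv level, described further on, and were chosen after their values were seen.
Igkv4-91, chr6:68768555-68768614, minus strand: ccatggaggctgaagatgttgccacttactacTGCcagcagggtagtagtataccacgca
Igkv3-7, chr6:70607977-70608036, plus strand: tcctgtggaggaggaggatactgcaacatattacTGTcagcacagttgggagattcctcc
Igkv4-68, chr6:69304834-69304893, minus strand: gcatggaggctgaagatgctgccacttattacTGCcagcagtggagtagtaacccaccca
Igkv5-48, chr6:69726573-69726632, minus strand: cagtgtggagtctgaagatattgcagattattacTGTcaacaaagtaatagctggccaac
Igkv16-104, chr6:68426013-68426072, plus strand: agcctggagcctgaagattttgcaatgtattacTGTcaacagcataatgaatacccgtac
Igkv6-23, chr6:70260409-70260468, minus strand: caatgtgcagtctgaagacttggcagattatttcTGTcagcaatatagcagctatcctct
Igkv6-17, chr6:70371934-70371993, plus strand: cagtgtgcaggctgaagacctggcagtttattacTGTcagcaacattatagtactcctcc
Sequences and positions are those of GENCODE M21 on GRCm38, which is the genome of C57BL/6J, whereas these mice are of BALB/c background and can carry other alleles. The whole V exon of Igkv10-96, the segment with the highest mean share (5.38% in T2106 and 7.09% in T2215) and the largest in 6 of the 45 tumours, reads as follows, with the same codon in capitals.
Igkv10-96, chr6:68631963-68632260, minus strand: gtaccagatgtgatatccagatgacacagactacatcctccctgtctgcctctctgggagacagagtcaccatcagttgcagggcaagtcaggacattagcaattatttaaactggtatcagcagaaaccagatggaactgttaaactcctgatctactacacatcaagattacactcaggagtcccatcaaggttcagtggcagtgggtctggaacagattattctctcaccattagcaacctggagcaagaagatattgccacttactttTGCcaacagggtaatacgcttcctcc

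Many segments resemble another closely, which bears on how far a value belongs to a single segment. Over the whole V exon, 61 of the 160 segments were at least 95% identical to their nearest relative, and the median of that identity was 93.6%. Igkv4-61 and Igkv4-59, the largest and the third largest segment of the tumour with the highest Igkv level, differ at 18 bases over the exon (94.1% identity). The last 120 bases of both are set out with the bases that differ in capitals.
Igkv4-61, chr6:69416893-69417012, minus strand: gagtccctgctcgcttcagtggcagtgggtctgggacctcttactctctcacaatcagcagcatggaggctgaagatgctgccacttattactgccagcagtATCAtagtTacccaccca
Igkv4-59, chr6:69438218-69438337, minus strand: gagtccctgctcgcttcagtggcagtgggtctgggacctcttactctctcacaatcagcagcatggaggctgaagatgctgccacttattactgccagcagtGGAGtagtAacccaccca
The 5 bases that differ in this stretch all lie after the cysteine codon, so the stretch before it is the same in both. The last 60 bases of Igkv4-59 are the same as those of Igkv4-68 shown above. How the counting treated reads that fit several segments, and whether it used strand, are not stated in the labels, so values of near-identical segments are uncertain.

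Igkv transcripts were scarce in most tumours and abundant in a few. The summed FPKM of all Igkv segments ran from 0.0569 to 1917 in T2106, with a median of 3.65 over 18 tumours, and from 0.0448 to 216 in T2215, with a median of 2.15 over 27 tumours. It was below 10 FPKM in 12 of 18 and in 20 of 27 tumours. Sums of 30 FPKM or more were found in 6 tumours of T2106 and 4 of T2215, and 9 of these 10 had received HLX53, alone or with a PD-1 antibody, the other being a serplulimab tumour. HLX53 was given to 18 of the 45 tumours, 9 in each experiment, and serplulimab to as many. All 6 high tumours of T2106 had received serplulimab. Among the 10, replicate 2 of HLX53 in T2215 was the only tumour without a PD-1 antibody. Most of the 10 had thus received both antibody classes, whose parts cannot be told apart in them. The highest tumour alone held 79.3% of all Igkv FPKM of T2106, and the highest of T2215 held 44.3%. In bulk RNA a difference in the number of B lineage cells and a difference in transcript per cell cannot be told apart.

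In T2106 the vehicle tumours had Igkv sums of 0.644, 1.81 and 1.74 FPKM. After serplulimab + HLX53 10 mg/kg the sums were 1917, 38.3 and 161 FPKM, all above every vehicle tumour. After serplulimab + HLX53 5 mg/kg they were 47.4, 175 and 2.24 FPKM. Replicate 3 of the 5 mg/kg group was close to vehicle, though still above it, and the ranges at 5 and 10 mg/kg overlapped. Serplulimab alone gave 48.0, 3.74 and 3.56 FPKM, all above vehicle, with replicate 1 within the range of the 10 mg/kg group and the others far below it. HLX53 alone gave 6.61, 0.521 and 1.25 FPKM. Pembrolizumab + tiragolumab gave 0.0569, 0.790 and 7.74 FPKM. The ranges of HLX53 alone and of pembrolizumab + tiragolumab overlapped vehicle. On the log2 scale the mean sum after serplulimab + HLX53 10 mg/kg was 7.49 above vehicle, with an SD of 2.86 between the treated and 0.84 between the vehicle tumours, and without its replicate 1 the difference was 5.96. At 5 mg/kg it was 4.39, with an SD of 3.23 between the treated tumours, or 6.17 without replicate 3 and 3.03 without replicate 2.

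In T2215 the vehicle tumours had Igkv sums of 2.13, 5.60 and 1.46 FPKM. Serplulimab + HLX53 gave 65.9, 216 and 4.34 FPKM. Replicates 1 and 2 were far above vehicle and replicate 3 lay within the vehicle range, so the groups overlapped. On the log2 scale the difference from vehicle was 3.93 with an SD of 2.89 between the treated and 1.003 between the vehicle tumours, 2.71 without replicate 2 and 5.53 without replicate 3. Pembrolizumab + HLX53 gave 100.1, 4.30 and 3.84 FPKM, and HLX53 alone gave 0.986, 32.1 and 2.60 FPKM. In each of these groups 1 tumour was high and the others lay near vehicle. The groups with tiragolumab stayed low, at 0.271, 2.15 and 0.286 FPKM alone, 2.06, 10.8 and 0.550 FPKM with serplulimab, and 1.19, 1.08 and 13.6 FPKM with pembrolizumab. A PD-1 antibody alone gave 0.715, 0.426 and 11.6 FPKM for serplulimab and 1.17, 2.34 and 0.0448 FPKM for pembrolizumab. All of these ranges overlapped that of vehicle or lay partly below it. Ordered by the group median, serplulimab + HLX53 came first at 65.9 FPKM and pembrolizumab + HLX53 second at 4.30 FPKM, and each of the 9 groups overlapped its neighbours in that order.

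**Figure D1:**
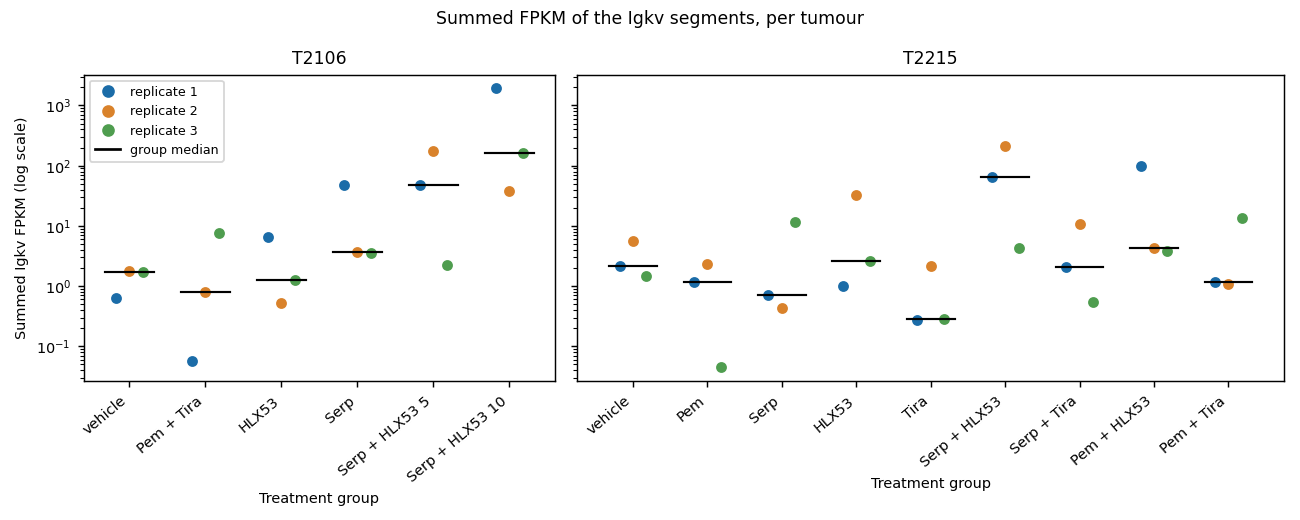
Summed FPKM of the 160 Igkv segments (vertical axis, log scale) for each tumour of T2106 (left) and T2215 (right), by treatment group, with points coloured by replicate number and bars at the group median; Serp is serplulimab, Pem pembrolizumab, Tira tiragolumab, and 5 and 10 are the HLX53 dose in mg/kg. The tumours of serplulimab + HLX53 10 mg/kg in T2106 sit between 38.3 and 1917 FPKM, above the vehicle tumours, and the other groups with a tumour at 30 FPKM or more also have a tumour below 5 FPKM.

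The number of different segments followed the same tumours. The median tumour had 1 segment at 0.5 FPKM or more in either experiment, 6 tumours of T2106 and 10 of T2215 had none, and the highest numbers were 69 and 53. Serplulimab + HLX53 10 mg/kg in T2106 gave 69, 21 and 46 segments, against 0, 1 and 0 with vehicle. At 5 mg/kg the numbers were 22, 48 and 1, and serplulimab alone gave 28, 1 and 1. In T2215 serplulimab + HLX53 gave 28, 53 and 1 segments, against 2, 2 and 1 with vehicle. Pembrolizumab + HLX53 gave 21, 2 and 2, and HLX53 alone 1, 16 and 2. No other tumour of T2215 had more than 7. A count of segments above a fixed level rises with the summed level, so it is no independent measure of diversity.

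**Figure D2:**
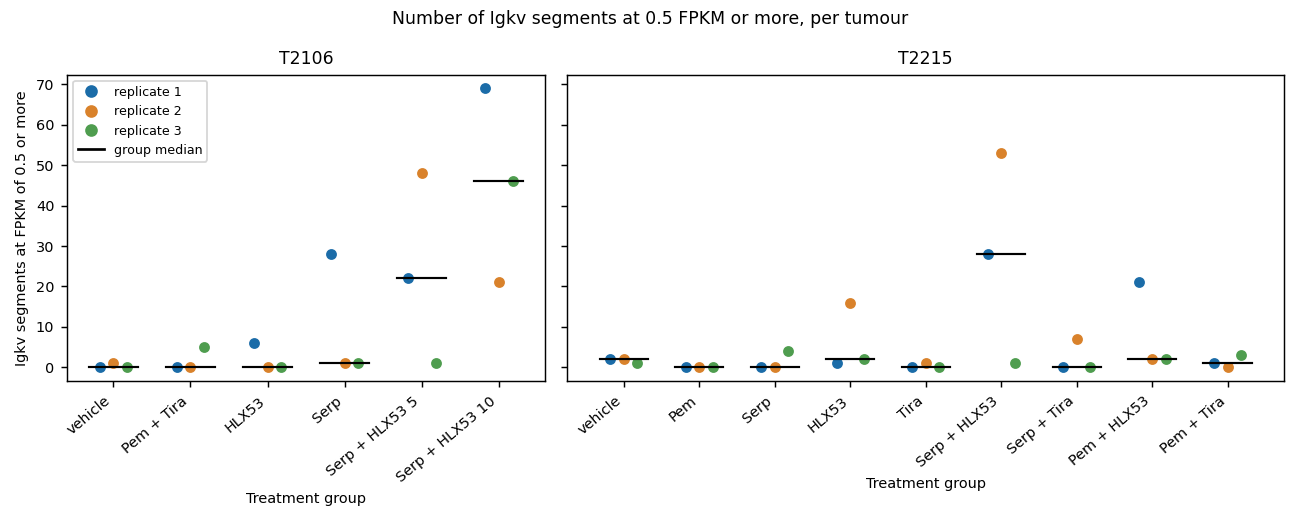
Number of Igkv segments at 0.5 FPKM or more (vertical axis) for each tumour, by treatment group, drawn as in the plot of summed FPKM. The 3 tumours of serplulimab + HLX53 10 mg/kg in T2106 had 21 to 69 segments, and most other tumours had fewer than 10.

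Transcripts came almost wholly from functional segments. Of the 100 functional V genes, 77 reached 0.5 FPKM in at least 1 of the 45 tumours, 73 of them in T2106, 62 in T2215 and 58 in both. None of the 60 pseudogenes did, and 56 of those never reached 0.05 FPKM. Functional segments held 99.8% or more of the Igkv sum in each of the 10 tumours with a sum of at least 30 FPKM. No segment was widespread: Igkv1-110 was at 0.5 FPKM or more in 14 of 45 tumours, the most of any, followed by Igkv10-96, Igkv1-117 and Igkv1-135 in 13 each. Among the families named by the first number of the symbol, Igkv4 is the biggest, with 33 segments, and held a mean of 22.8% of the Igkv sum per tumour in T2106 and 12.5% in T2215. Igkv1, with 13 segments, held 13.2% and 17.2%. Igkv13, with 18 segments of which 2 are functional, held 0.169% and 0.577%.

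The 10 segments with the highest mean level in T2106 were Igkv4-61, Igkv17-121, Igkv4-59, Igkv5-48, Igkv9-124, Igkv14-111, Igkv10-96, Igkv4-55, Igkv2-109 and Igkv4-72. Their means rested on single tumours. Igkv4-61 had a mean of 68.2 ± 288 FPKM (SD, n = 18) and a median of 0.00181, with 1224 FPKM in replicate 1 of serplulimab + HLX53 10 mg/kg. The same tumour was the highest for 9 of the 10, and Igkv5-48 was highest in replicate 3 of that group at 71.8 FPKM. In T2215 the 10 were Igkv10-96, Igkv6-17, Igkv1-117, Igkv3-5, Igkv12-44, Igkv3-12, Igkv6-23, Igkv3-7, Igkv1-110 and Igkv4-72. Igkv10-96 led there with 2.32 ± 8.69 FPKM (SD, n = 27) and a median of 0.129, with 44.8 FPKM in replicate 1 of pembrolizumab + HLX53. Igkv4-72 reached 8.14 FPKM, 60.04% of the Igkv sum, in replicate 3 of pembrolizumab + tiragolumab. In the 3 vehicle tumours of T2106, Igkv10-96 was at 0.608 FPKM in replicate 2 and near 0 in the others.

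Which segment was the largest differed from tumour to tumour. Over the 45 tumours, 27 different segments were the largest at least once, led by Igkv10-96 in 6 tumours, Igkv3-7 in 5 and Igkv4-61 in 4. Igkv1-110, Igkv1-117, Igkv1-135, Igkv2-109, Igkv6-23 and Igkv12-46 were each the largest in 2. The remaining 18, from Igkv3-2 to Igkv19-93, were the largest in 1 tumour each. These counts include the 6 tumours of T2106 and 10 of T2215 in which no segment reached 0.5 FPKM. Igkv4-71 was the largest at 0.00243 FPKM, and Igkv4-61 in 1 of its 4 tumours at 0.00177 FPKM. The share of the largest segment had a median of 21.4% in T2106 (range 4.28% to 63.8%) and 35.8% in T2215 (range 3.94% to 63.5%). Where the sum is low the share describes little: in the tumours with sums of 0.0569 and 0.0448 FPKM every segment was near 0, and in tumours near 1 FPKM a share of 40% is a value below 0.5 FPKM.

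Shares were therefore read mainly in the 10 tumours with a sum of at least 30 FPKM, and each of these had a different largest segment. In T2106 Igkv1-117 held 14.8% in replicate 1 of serplulimab. In the 5 mg/kg group Igkv4-91 held 11.2% in replicate 1 and Igkv3-7 held 7.26% in replicate 2. In the 10 mg/kg group Igkv4-61 held 63.8% in replicate 1, Igkv4-68 held 16.9% in replicate 2 and Igkv5-48 held 44.5% in replicate 3. The tumours of that group thus had unlike leading segments, and in replicates 1 and 3 a single segment supplied much of the sum. In T2215 Igkv16-104 held 16.3% in replicate 2 of HLX53, Igkv6-23 held 14.3% in replicate 1 and Igkv6-17 held 15.2% in replicate 2 of serplulimab + HLX53. Igkv10-96 held 44.8% in replicate 1 of pembrolizumab + HLX53. So 3 of the 10 tumours had a segment above 40%, and in the other 7 the largest lay between 7.26% and 16.9%.

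**Figure D3:**
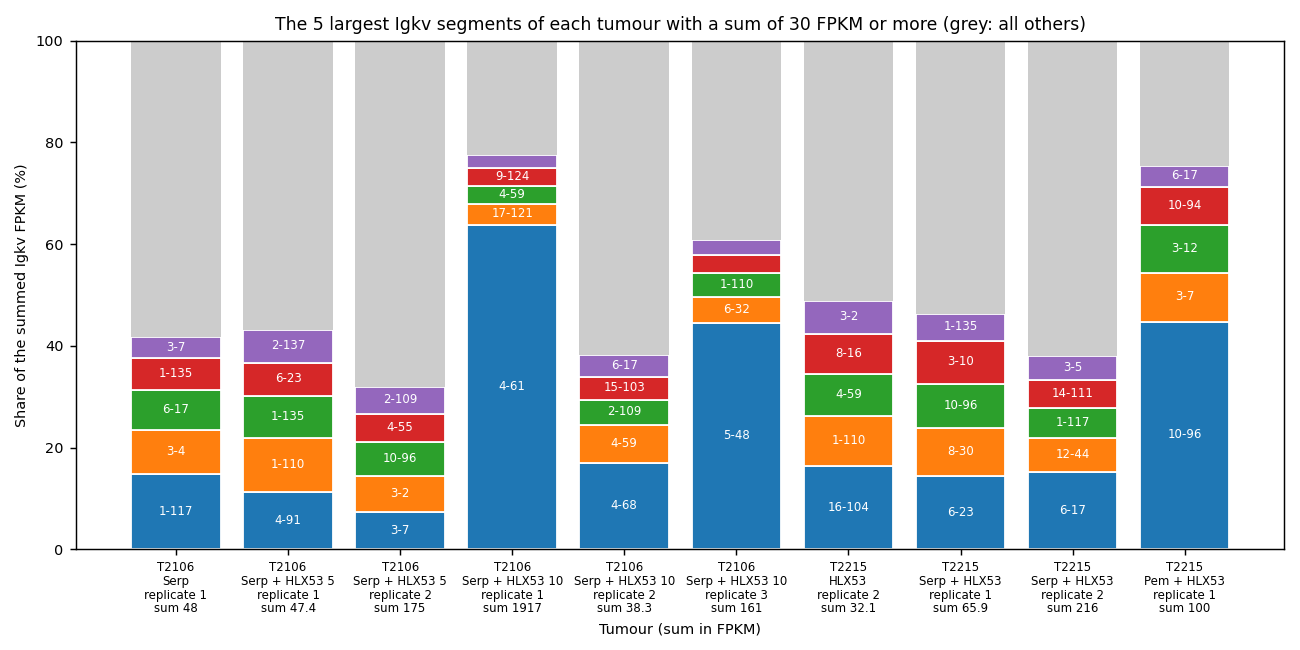
Share of the summed Igkv FPKM (vertical axis, percent) held by the 5 largest segments, in blue, orange, green, red and purple from the largest down, and by all others (grey) in each of the 10 tumours with a sum of 30 FPKM or more; labels in the bars give the segment without the prefix Igkv. Igkv4-61, Igkv5-48 and Igkv10-96 take 63.8%, 44.5% and 44.8% of 3 tumours, and the largest segment differs in all 10.

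The tumour with the highest level stood apart in this respect. In replicate 1 of serplulimab + HLX53 10 mg/kg Igkv4-61 stood at 1224 FPKM, against 0.440 and 0.463 FPKM in replicates 2 and 3. Its second largest segment, Igkv17-121, stood at 79.1 FPKM, or 4.13% of the sum, and Igkv4-59 at 68.1 FPKM. Igkv4-54, the segment nearest to Igkv4-61 in sequence (96.7% identity), was at 0.167 FPKM in the same tumour. Without Igkv4-61 the sum of the other segments there was 693 FPKM, still the highest of the 18 tumours. In replicate 3 Igkv5-48 stood at 71.8 FPKM and the next segment, Igkv6-32, at 8.42 FPKM. In replicate 1 of pembrolizumab + HLX53 Igkv10-96 stood at 44.8 FPKM, followed by Igkv3-7 at 9.57 FPKM, while Igkv10-94, its nearest relative (94.6% identity), was at 7.59 FPKM.

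The effective number of segments, the inverse of the sum of the squared shares, puts this on a scale where equal use of N segments gives N. It was 2.41, 18.6 and 4.76 in replicates 1, 2 and 3 of serplulimab + HLX53 10 mg/kg, and 4.38 in replicate 1 of pembrolizumab + HLX53. The other 6 of the 10 tumours had between 14.98 and 26.9, with the highest value in replicate 2 of the 5 mg/kg group. The high tumours thus included both narrow and broad profiles. A set of 4 segments was at 0.5 FPKM or more in all 10 tumours, Igkv1-110, Igkv1-117, Igkv1-135 and Igkv12-44, and 12 segments were so in only 1 of them, out of 77 in any. The overlap of profiles, the sum over segments of the smaller of a pair's shares, ran from 13.8% to 51.5% over the 45 pairs of these tumours, with a median of 38.8%. For the 5 pairs within a group the median was 40.7%, and for the 24 pairs from different experiments it was 38.9%. Pairs share the reference and its near-identical segments, and pairs of a group share its treatment, so these are descriptions without a test.

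Use spread along the whole locus. Segments on the minus strand, opposite to Igkc, make up 85 of the 160 segments and 62 of the 100 functional ones. Together these 85 held 38.3% to 84.5% of the Igkv sum in the 10 tumours. The highest of these shares, 84.5%, was that of replicate 1 of serplulimab + HLX53 10 mg/kg, whose leading Igkv4-61 lies on the minus strand 1309 kb from Igkc. The 50 segments within 1000 kb of Igkc, 40 of them functional, held 7.87% to 68.6%. Both ends of that range were in the 10 mg/kg group, in replicate 1 led by Igkv4-61 and in replicate 3 led by Igkv5-48, which lies 999 kb from Igkc. Igkv1-135, one of the 4 segments seen in all 10, lies 3116 kb away, near the far end of the locus.

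**Figure D4:**
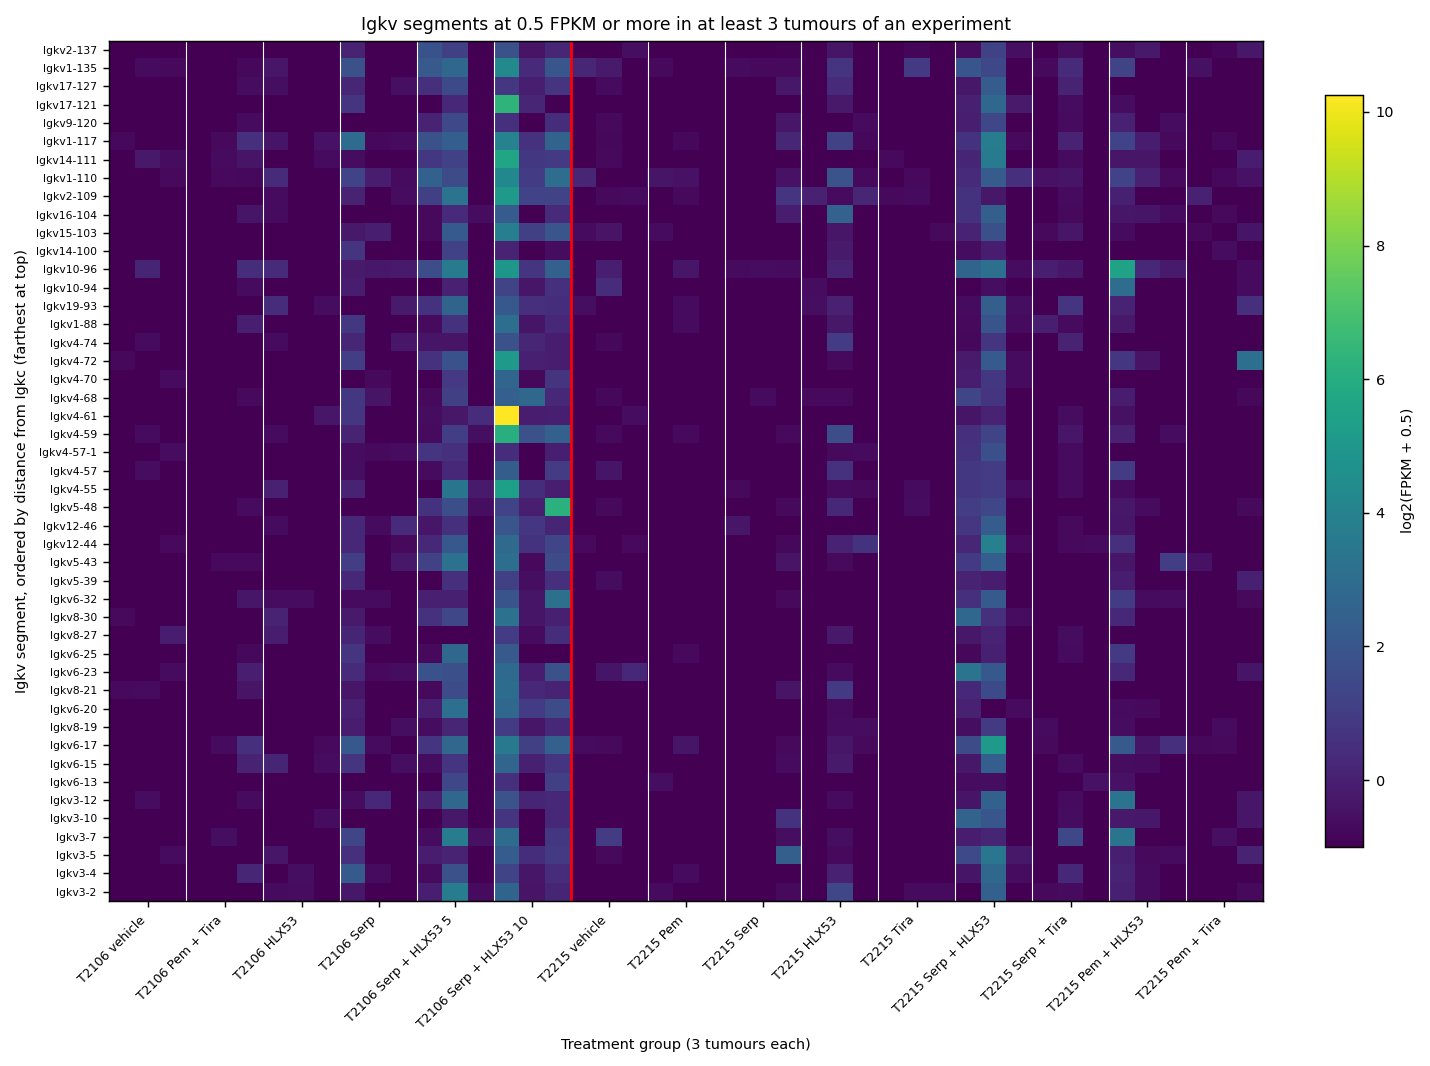
log2(FPKM + 0.5) of the Igkv segments at 0.5 FPKM or more in at least 3 tumours of an experiment (rows, the farthest from Igkc at the top) in the 45 tumours (columns, 3 per group; white lines part the groups and the red line the experiments). The bright columns are the tumours with high sums, Igkv4-61 in replicate 1 of serplulimab + HLX53 10 mg/kg is the brightest cell at 1224 FPKM, and no row is bright in every column.

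Igkc, the constant region that every kappa transcript carries, was high in the tumours where the summed V segments were high. In T2106 it stood at 0.860, 7.54 and 0.770 FPKM with vehicle and at 1540, 54.8 and 198 FPKM after serplulimab + HLX53 10 mg/kg, with no overlap. At 5 mg/kg it stood at 52.8, 210 and 3.41 FPKM. Serplulimab alone gave 50.8, 4.24 and 9.35 FPKM, HLX53 alone 10.3, 1.99 and 1.90 FPKM, and pembrolizumab + tiragolumab 1.59, 0.896 and 6.23 FPKM. In T2215 Igkc was 6.69, 9.30 and 2.50 FPKM with vehicle and 117.8, 251 and 7.57 FPKM after serplulimab + HLX53, where replicate 3 lay within the vehicle range. It was 109 FPKM in replicate 1 of pembrolizumab + HLX53, 38.3 FPKM in replicate 2 of HLX53, and 0.421 to 23.5 FPKM in the other tumours of T2215. The Igkv sum divided by Igkc lay between 0.560 and 1.24 in the 10 tumours with sums of at least 30 FPKM, so in these tumours FPKM over the V exons and over the constant region were of similar size, while over all 45 tumours the ratio went down to 0.0357. Over all tumours it went up to 2.25, in replicate 3 of vehicle in T2106, where the Igkv sum was 1.74 FPKM. Among the 10 the highest ratio, 1.24, was that of the tumour led by Igkv4-61.

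Single segments were tested with limma over all genes that had 0.5 FPKM or more in at least 3 libraries, on log2(FPKM + 0.5), with Benjamini-Hochberg adjustment and a threshold of 0.05. Of the 160 segments 45 passed this filter in T2106 and 24 in T2215, with 22 in both, and the other 115 and 136 were not tested. In T2106 the filter itself leans on the treated group: 19 segments would have passed without the libraries of serplulimab + HLX53 10 mg/kg. Segments that entered through that group had to be high in it, so the counts that follow describe these libraries and support no statement on the locus. Fold changes are on the log2(FPKM + 0.5) scale and are held down where a level is below 0.5 FPKM, as nearly all vehicle levels were.

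After serplulimab + HLX53 10 mg/kg, 28 of the 45 tested segments rose against vehicle and none fell. Over all 15070 genes tested 23.4% rose and 44% changed in either direction, with a median log2 fold change of −0.04 against 1.97 over the tested segments. In 34 of the 45 every treated tumour was above every vehicle tumour, as was so for 31.6% of all genes. Igkv4-59 was near 0, at 0.129 FPKM and near 0 with vehicle, and at 68.1, 2.92 and 4.92 FPKM with treatment. All treated tumours were above all vehicle tumours, and the log2 fold change was 4.33 ± 0.80 (SE, adjusted p = 0.00761). Igkv1-110 was near 0, near 0 and at 0.109 FPKM with vehicle, and at 18.6, 1.47 and 7.62 FPKM with treatment. The groups did not overlap, and the fold change was 3.66 ± 0.85 (adjusted p = 0.0113).

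Igkv2-109 was near 0 in all vehicle tumours and at 33.0, 1.87 and 2.00 FPKM with treatment (log2 fold change 3.55 ± 0.95, adjusted p = 0.0149). Igkv5-48 was near 0 in all vehicle tumours and at 1.96, 0.450 and 71.8 FPKM with treatment (3.47 ± 1.06, adjusted p = 0.0221). These were the 4 largest rises that passed. Igkv4-61, with the highest level of any segment, had the largest fold change, 4.37 ± 1.85, and did not pass (adjusted p = 0.0657). Its values of 1224, 0.440 and 0.463 FPKM were all above vehicle, where it was near 0 in all tumours, and the spread between them was wide. The count depends on replicate 1 of the treated group: without it 32 segments were tested and 1 rose, Igkv4-59, with 2.36% of all genes called in either direction. Without vehicle replicates 1, 2 and 3 in turn 13, 15 and 17 of 45 rose, as 21.4%, 25.2% and 28.6% of all genes were called. Without replicates 2 and 3 of the treated group 39 of 44 and 10 of 37 rose, with 48.95% and 5.86% of all genes called.

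In the other comparisons no segment passed. After serplulimab + HLX53 5 mg/kg, 0 of 45 segments were called (1.02% of all genes), 11 had an unadjusted p under 0.05, near the 28.7% of all genes that did, and the lowest adjusted p was 0.106. In 11 of 45 segments every treated tumour was above every vehicle tumour, against 5.84% of all genes. This count has no lower limit on the values. Replicate 3 of this group had only 8 segments at 0.05 FPKM or more, so some of the 11 rest on the order of values near 0. The count is therefore not read as a rise. Igkv3-7 was at 0.152, 12.7 and 0.207 FPKM at this dose and near 0 with vehicle (log2 fold change 1.86 ± 1.06, adjusted p = 0.239). Without replicate 3 of this group, whose Igkv sum was 2.24 FPKM, 17 of 44 segments rose (38.6%), a share near the 40.6% of all genes called. For serplulimab alone 0 of 45 segments were called (0% of all genes) and 1 had an unadjusted p under 0.05, against 8.49% of all genes. For HLX53 alone (0.00664% of all genes called) and for pembrolizumab + tiragolumab (0%), 0 were called. In each of these 0 segments had such a p, against 3.86% and 5.14% of all genes.

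In T2215, serplulimab + HLX53 against vehicle gave 0 called segments of 24, with 0% of all genes called. At an unadjusted p under 0.05 there were 18, against 18.3% of all genes, and the lowest adjusted p was 0.239. In 7 of the 24 every treated tumour was above every vehicle tumour, against 8.11% of all genes. Igkv6-17 was at 2.52, 32.8 and near 0 FPKM with treatment and at 0.128, 0.101 and near 0 FPKM with vehicle, so the groups overlapped (log2 fold change 2.69 ± 0.86, adjusted p = 0.239). Igkv1-110 was at 0.792, 4.35 and 0.972 FPKM with treatment and at 0.656, near 0 and near 0 FPKM with vehicle, with no overlap (1.67 ± 0.61, adjusted p = 0.239). Without replicate 3 of the treated group, 7 of 24 segments rose and 0.0806% of all genes were called. That tumour had the lowest Igkv sum of its group, 4.34 FPKM. Over all tumours left out in turn the count ran from 0 to 7. Only 9 of the 24 segments would have passed the filter without the libraries of this group. The other segments entered by being high in it, so these counts describe the libraries and support no statement on the locus.

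The remaining comparisons of T2215 called 0 of 24 segments each. The share of all genes called was 0% for serplulimab, pembrolizumab, HLX53, tiragolumab and serplulimab + tiragolumab, 0.00671% for pembrolizumab + HLX53 and 0.0134% for pembrolizumab + tiragolumab, all against vehicle. Pembrolizumab + HLX53 had 1 segment with an unadjusted p under 0.05, against 6.43% of all genes. The others had 0, against 0.939% (tiragolumab) to 12.4% (serplulimab) of all genes. Averaged over groups, 0 segments were called for PD-1 antibody against none (0% of all genes), TIGIT antibody against none (0.0134%), and serplulimab groups against pembrolizumab groups (0%). At an unadjusted p under 0.05 there were 0, 0 and 3 of 24 segments, against 7.28%, 6.62% and 9.51% of all genes. The groups with HLX53 against those with tiragolumab, both of which bind TIGIT, called 0 (0% of all genes), with 16 of 24 at an unadjusted p under 0.05, as 26.6% of all genes were, and a lowest adjusted p of 0.155. Only 1 of the 24 segments would have passed the filter without the HLX53 libraries, so nearly all entered this comparison by being high in them, and the count of 16 supports nothing. Without replicate 3 of serplulimab + HLX53, 4 segments were called higher in that comparison (0.0470% of all genes called): Igkv3-10, Igkv5-48, Igkv6-17 and Igkv6-23. The tumour left out had the lowest Igkv sum of its group, and the segments entered by the same filter. These 4 calls therefore support nothing either. HLX53 and tiragolumab are different antibodies whose sequences were not used here, and the comparison holds both at 10 mg/kg.

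**Figure D5:**
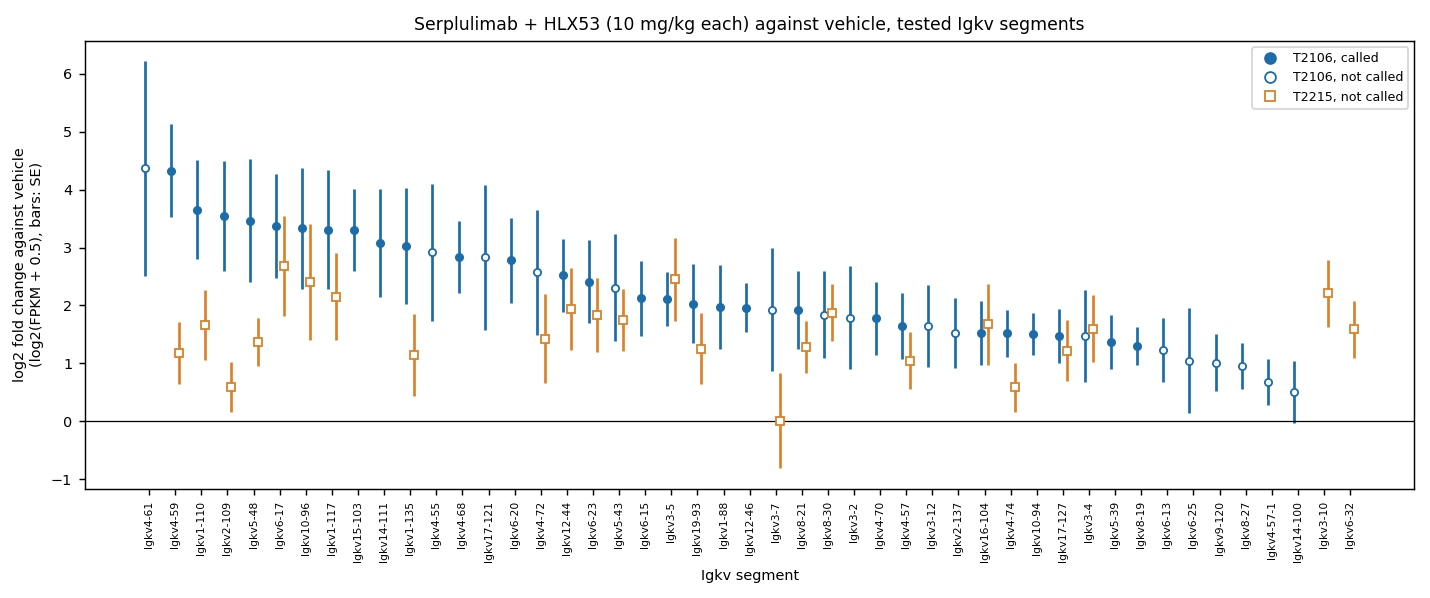
log2 fold change against vehicle, on log2(FPKM + 0.5) (vertical axis, bars are SE), of the Igkv segments tested in serplulimab + HLX53 at 10 mg/kg each: circles for T2106, filled where the adjusted p passed 0.05, and open squares for T2215, where none passed. In T2106 28 of 45 segments passed, and the leftmost, Igkv4-61, has the largest fold change and the longest error bar.

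Other genes of the antibody system were read from lists of markers. After serplulimab + HLX53 10 mg/kg in T2106, 9 of the 10 tested genes of the immunoglobulin constant and joining list rose and none fell (23.4% of all genes rose), with a median log2 fold change of 3.20. Igkc rose by 6.74 ± 1.45 (adjusted p = 0.01003), and Iglc1 and Iglc2, lambda constant regions, by 3.17 ± 0.62 and 3.05 ± 0.66. Igha, the constant region of IgA, rose by 5.35 ± 1.26 and Ighg2b, that of an IgG class, by 3.57 ± 0.87. Ighm, the constant region of IgM, stood at 1.78 ± 0.77 and did not pass (adjusted p = 0.0707). No J segment of the kappa locus passed the filter on low values. So kappa, lambda, IgA and IgG transcripts were all higher in these tumours.

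Of 12 tested plasma cell genes 9 rose and 2 fell, with a median of 1.43. Jchain, which links the units of IgA and IgM, was at 0.0150, 0.393 and 0.151 FPKM with vehicle and at 89.0, 5.07 and 12.8 FPKM with treatment, and rose by 4.81 ± 1.09 (adjusted p = 0.0109). Sdc1, a surface proteoglycan of plasma cells that carcinomas also express, rose by 1.55 ± 0.39, Irf4, a transcription factor of plasma cells, by 1.46 ± 0.39, and Mzb1, a folding factor of antibody secretion, by 2.87 ± 0.77. The genes that fell were Fkbp11 (−0.57 ± 0.18) and Txndc5 (−0.33 ± 0.09), folding factors of the secretory pathway in many cell types, which stood at 38.5 against 57.7 and 109 against 137 FPKM. Of 11 tested B cell genes 9 rose and none fell, with a median of 1.39. Cd79a, part of the B cell receptor, rose by 2.17 ± 0.60, Ebf1, a transcription factor of early B cells and fat precursors, by 2.18 ± 0.59, Cd22 by 1.76 ± 0.51 and Fcrla by 1.90 ± 0.56.

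Of the genes of V(D)J recombination and early B cell development, 2 were tested and 1, Dntt, rose, by 0.71 ± 0.27. The list summed to 0.376 to 0.975 FPKM with treatment and to 0.537 to 0.620 FPKM with vehicle. None of the 3 tested germinal centre genes, Bcl6, S1pr2 and Gcsam, passed. Of 11 T cell genes 3 rose, Cd4, Cd28 and Trbc1, a share near the 23.4% of all genes that rose, with list sums of 112 to 267 FPKM against 53.4 to 84.6 with vehicle. No gene of any of these lists passed in the other 16 comparisons.

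Markers of tissues outside the tumour were also higher than with vehicle in the same group, and their part in the Igkv level was not tested. All 10 tested adipocyte genes rose, and their list summed to 1726 to 1964 FPKM after serplulimab + HLX53 10 mg/kg, against 79.2 to 411 FPKM with vehicle, where 2 of the 11 list genes were under 0.5 FPKM in every tumour. Of 4 tested keratinocyte genes 3 rose, with list sums of 8.88 to 9.22 against 1.29 to 1.82 FPKM. All 5 tested genes of lymph node stroma and vessels rose, among them Glycam1 of high endothelial venules (1.62 ± 0.45) and Cxcl13, a chemokine of B cell follicles (5.15 ± 1.39), and their list summed to 29.2 to 175 FPKM against 0.937 to 12.7. Of the muscle and mammary lists 1 of 3 and 1 of 2 tested genes rose. Replicates 1, 2 and 3 of the treated group had Igkv sums of 1917, 38.3 and 161 FPKM. Their adipocyte sums were 1738, 1726 and 1964 FPKM and their keratinocyte sums 8.88, 9.22 and 8.97 FPKM, which did not follow the Igkv order. Their lymph node sums were 175, 29.2 and 117 FPKM, in the same order as Igkv. With the mean adipocyte level as a covariate, an alternative added after the data were seen, 0 Igkv segments and 3 genes in all were called in this comparison. Adipocyte sums of the treated and vehicle tumours did not overlap, so this fit cannot tell treatment and adipocyte level apart. No conclusion is drawn from the loss of calls.

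Across single tumours the levels did not always go together. Replicate 1 of serplulimab in T2215 had an adipocyte sum of 2995 FPKM and a lymph node list of 98.6 FPKM at an Igkv sum of 0.715 FPKM. This is the muscle-rich library named at the start. Replicate 1 of serplulimab + HLX53 5 mg/kg in T2106 had an Igkv sum of 47.4 FPKM at an adipocyte sum of 321 FPKM, within the vehicle range of 79.2 to 411. In T2215 replicate 2 of serplulimab + HLX53, with the highest Igkv sum there, also had the highest adipocyte sum, 3826 FPKM, and replicate 1, with an Igkv sum of 65.9 FPKM, had 476 FPKM, within the vehicle range of 133 to 651. Ighv segments were highest in the same tumours as Igkv: their sum was 596, 3.91 and 19.7 FPKM after serplulimab + HLX53 10 mg/kg in T2106 and 0.0744, 0.548 and 0.688 FPKM with vehicle. The 3 Iglv rows summed to 88.7, 2.75 and 10.1 FPKM in the treated tumours and to 0.129 FPKM or less with vehicle.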

How the data were processed

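RNA of 45 tumours was sequenced as paired 150-base reads. Tools listed by the submitters' processing notes are STAR, Bowtie, Trimmomatic and FastQC, and builds are mm10, hg19 and GRCh37. The labels do not state which program, annotation or strand setting gave the values. As the measurement, the authors deposited log2 FPKM values, 1 table per experiment, per the file headers. They were returned to FPKM for sums, numbers and shares. limma 3.58.1 under R 4.3.3 (eBayes with trend) was fitted to log2(FPKM + 0.5) over all groups of an experiment, on genes with 0.5 FPKM or more in at least 3 libraries, with Benjamini-Hochberg adjustment across every gene tested. The fit was tested on simulated data in which a gene had the same spread in every group. Igkv levels did not have that, so the simulation does not cover the Igkv calls. The p-values and SEs rest on a spread between tumours that is pooled, for each gene, over all groups of an experiment. Groups differed in spread: the log2 Igkv sums of T2106 had an SD of 2.86 after serplulimab + HLX53 10 mg/kg and 0.84 with vehicle. An SE can therefore be too small for a group with wide spread. No test was made on sums, numbers or shares.

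The members, the 11 marker lists (113 genes, of which Tent5c matched no symbol) and the rules were chosen with earlier results of these data known. Segments named were the 10 with the highest mean per experiment, those largest in a tumour, and up to 4 called with the largest rise or fall. List genes named were up to 4 called with the smallest p, and others named were chosen after their values were seen. Coordinates and sequences come from GENCODE M21 on GRCm38, using the longest transcript of a segment. Replicate numbers do not pair tumours across groups. Alternatives tried were the pseudocount, the filter, rescaling, centring, the groups fitted, a replicate block and leaving out each tumour.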

Additional observations from a re-analysis of the deposited data

How the results depend on the processing

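The count of 28 segments higher after serplulimab + HLX53 10 mg/kg became 16 of 160 with no filter on low values (7.27% of all genes called), 15 of 17 with only the groups compared (52.7%), and 0 when the mean adipocyte level was a covariate (added after the data were seen). Leaving out each tumour in turn gave 1 to 39. Adipocyte sums of treated and vehicle tumours did not overlap, so the covariate fit cannot tell treatment and adipocyte level apart. With no filter 1 segment was called after serplulimab + HLX53 5 mg/kg (Igkv4-79), and 1 (Igkv4-77, under 0.5 FPKM in every tumour) for serplulimab + HLX53 in T2215, PD-1 antibody against none, TIGIT antibody against none, serplulimab against pembrolizumab groups and HLX53 against tiragolumab groups. Leaving out a tumour gave 0 to 17 at 5 mg/kg (17 where 40.6% of all genes were called), 0 to 7 for serplulimab + HLX53 in T2215 and 0 to 4 for HLX53 against tiragolumab groups. The cause of these shifts was not tested. The median number of segments per tumour, 1 in each experiment, was 15 in T2106 and 8 in T2215 at 0.1 FPKM, 15.5 and 9 at 0.05 FPKM (added after the data were seen), 0 and 0 at 1 FPKM, and 3 and 2 with libraries rescaled to a common sum. The median share of the largest segment was 44.5% in T2106 and 15.2% in T2215 over tumours with sums of at least 50 FPKM. Few tumours reached that sum, and each median is the value of a single tumour. These are replicate 3 of serplulimab + HLX53 10 mg/kg in T2106 and replicate 2 of serplulimab + HLX53 in T2215. The other 308 alternatives for called counts, and all 117 for differences in the summed FPKM, stayed within 1.5 times the count or 1 SD pooled over both groups. Many of the 308 are counts of 0 that stayed at 0. With only the groups compared, no Igkv segment was tested for serplulimab, HLX53 or pembrolizumab + tiragolumab in T2106. Those counts could not move.

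With the replicate block 28 segments were called after serplulimab + HLX53 10 mg/kg and 0 in the other comparisons. For pairing, the deviation of each tumour from its group mean, over all genes tested, was correlated between tumours of different groups. For same-numbered tumours this correlation lay between −0.683 and 0.624 in T2106 and between −0.739 and 0.723 in T2215. By this measure 5 of 18 and 4 of 27 tumours correlated best with their own number. Read depth is unknown, so values near 0.1 FPKM could not be given a counting error.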
